A study of Mus musculus with 2 samples.

Results

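Aminoacyl-tRNA synthetases are the enzymes that join each amino acid to its tRNA. The 36 genes described here were taken as a named list of these enzymes, 20 that act in the cytosol and 16 that act in mitochondria, out of 43346 genes with an Ensembl identifier in the deposited tables. All 36 were found in the tables. The list was made by name and not from measured values, though earlier results of these data were known when it was chosen.

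The cells were of the mouse line CH12.LX, immortalized and grown from a B-cell lymphoma of strain B10.H-2aH-4bp/Wts. The labels give it as female and of unknown age and name no genetic change or treatment. Polyadenylated RNA was sequenced as single-end reads in 2 libraries that the labels number as biological replicates, so the study has 1 group and no second condition. Whether the 2 came from separate cultures is not stated in the labels, and the spread between them may therefore be partly technical. The expected counts summed to 22996547 in replicate 1 and 25715408 in replicate 2. The B cell markers were all present, 6 of 6 at 1 TPM or more in both libraries with medians of 206 and 226 TPM (a relative level corrected for transcript length and depth). Among them Cd79b stood at 525 and 545 TPM, Cd79a at 262 and 314 and Ms4a1 at 267 and 285. None of 4 T cell markers (Cd3e, Cd4, Cd8a, Bcl11b) and none of 3 erythroid markers (among them Klf1 and Epor) reached that level in both libraries, nor did the myeloid genes Csf1r, Lyz2 and Mpo. The myeloid gene Adgre1 was at 1.64 and 1.34 TPM.

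Each synthetase recognizes a single amino acid, activates it with ATP and loads it on the matching tRNA, and ribosomes depend on that match for accurate translation. Animal cells keep separate enzymes for cytosolic and mitochondrial protein synthesis, all encoded in the nucleus, and a few genes supply both compartments. The enzymes fall into 2 unrelated structural classes, and several cytosolic ones are held together with scaffold proteins in the multisynthetase complex.

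All 36 genes were detected at 1 TPM or more in both libraries, whereas 48.0% of 21474 protein-coding genes were. Together they made up 0.788% (replicate 1) and 0.794% (replicate 2) of all counts. Without Lars2 the share was 0.702% in replicate 1 and 0.646% in replicate 2. The cytosolic enzymes had a median of 160 TPM in replicate 1 and 145 in replicate 2, and the mitochondrial enzymes 19.4 and 17.4 TPM. The median of all detected protein-coding genes was 21.1 and 20.7 TPM, so the mitochondrial enzymes lay near the middle of expressed genes. Of the detected protein-coding genes, 8.74% exceeded the cytosolic median and 53.9% the mitochondrial one. Apart from Lars2, no mitochondrial enzyme reached the level of the lowest cytosolic enzyme in either library. Members are not replicates of a condition, so these medians describe the list and carry no test. In bulk RNA, a level shared by all cells and a higher level in fewer cells cannot be told apart.

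**Figure D1:**
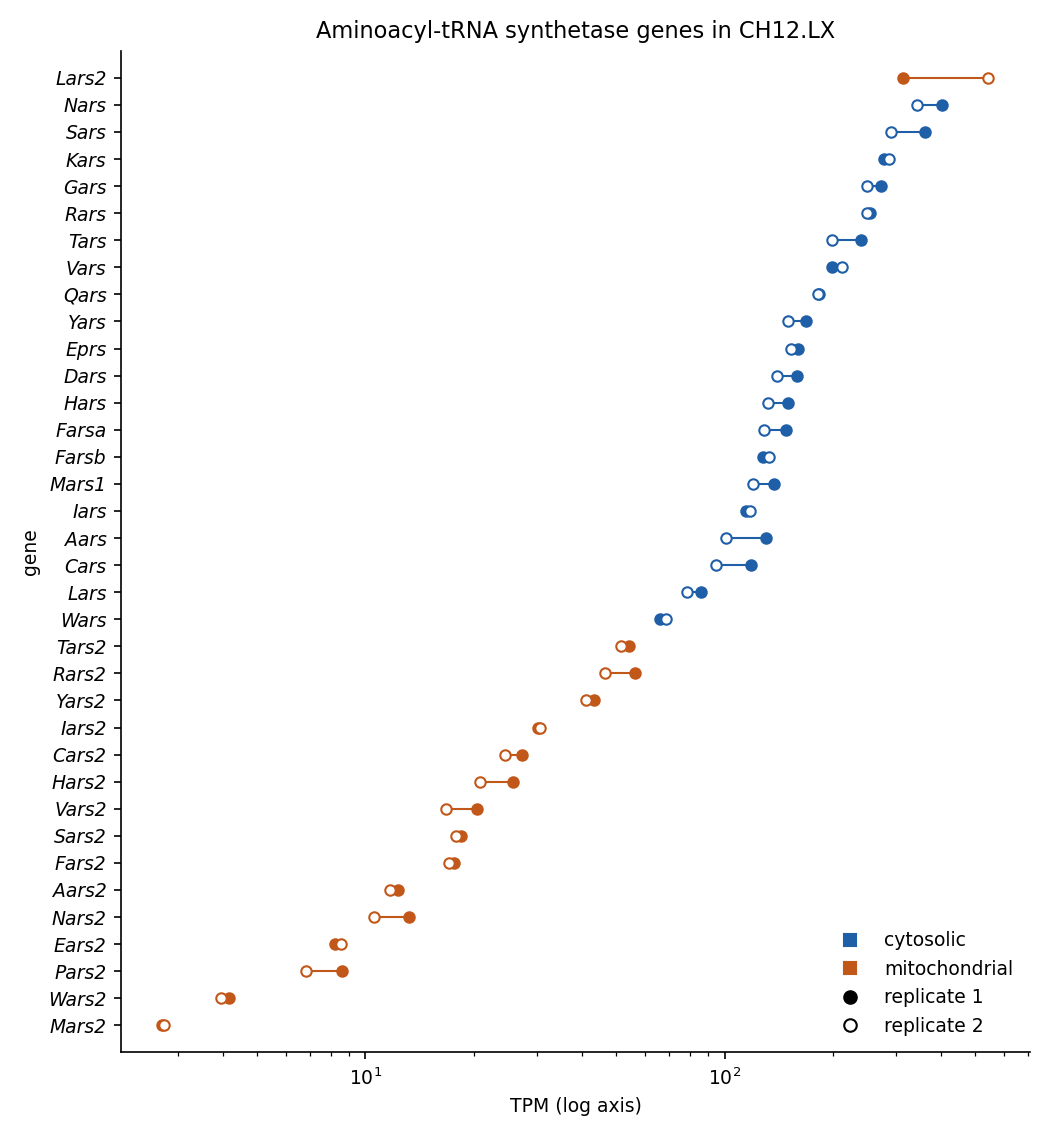
TPM of each of the 36 synthetase genes on a log axis, with replicate 1 as filled and replicate 2 as open circles and genes ordered by their mean. The 20 cytosolic enzymes (blue) sit between 66.3 and 404 TPM, and 15 of the 16 mitochondrial enzymes (orange) sit below them, at 2.72 to 56.5 TPM. Lars2 alone is placed at the top, by its mean, although Nars and Sars were above it in replicate 1.

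Among the cytosolic enzymes, asparaginyl-tRNA synthetase (Nars) led with 404 and 343 TPM, a mean of 374 ± 42.9 (SD, n = 2). Seryl-tRNA synthetase (Sars) followed with 362 and 291 TPM. Nars was the higher of the 2 genes in each library, although their ranges across the libraries overlapped. Lysyl-tRNA synthetase (Kars) stood at 278 and 288 TPM, glycyl-tRNA synthetase (Gars) at 273 and 249 and arginyl-tRNA synthetase (Rars) at 254 and 249. The ranges of Gars and Rars overlapped, though Gars was the higher in each library, narrowly in replicate 2 (249.4 against 248.8 TPM). Both values of Kars lay above theirs. Threonyl-tRNA synthetase (Tars) had 240 and 199 TPM and valyl-tRNA synthetase (Vars) 199 and 212, again overlapping. These 7 genes were the upper part of the list. Each exceeded the cytosolic median in both libraries, as did Qars, Yars and Eprs of the middle group described next.

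A middle group ran from 95.0 to 183 TPM with many overlaps between neighbours. It held Qars for glutamine (183 and 182 TPM), Yars for tyrosine (169 and 150), Eprs, whose product joins glutamyl- and prolyl-tRNA synthetase in 1 chain (161 and 154), and Dars for aspartate (160 and 140). Hars for histidine (151 and 133 TPM), Mars1 for methionine (138 and 120), Iars for isoleucine (115 and 117), Aars for alanine (130 and 101.1) and Cars for cysteine (118 and 95.0) completed it together with Farsa and Farsb. Farsa and Farsb encode the α and β chains of a single enzyme, cytosolic phenylalanyl-tRNA synthetase. Farsa was at 149 and 129 TPM and Farsb at 128 and 133 TPM, and the ranges of the 2 chains overlapped. Leucyl-tRNA synthetase (Lars), at 85.8 and 78.4 TPM, and tryptophanyl-tRNA synthetase (Wars), at 66.3 and 68.7 TPM, were the lowest. The values of Lars, of Wars and of the genes above them did not overlap. Even Wars was exceeded by no more than 20.6% of detected protein-coding genes.

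Enzymes of the multisynthetase complex did not stand apart in level from the other cytosolic enzymes. The 8 complex enzymes (Dars, Eprs, Iars, Kars, Lars, Mars1, Qars, Rars) had medians of 160 and 147 TPM, and the 12 others 160 and 141 TPM. Within the complex the levels ran from 85.8 (Lars) to 278 TPM (Kars) in replicate 1 and from 78.4 to 288 TPM in replicate 2. The 3 scaffold genes lay in the same range. Aimp1 was at 244 and 211 TPM, Aimp2 at 111 and 113 and Eef1e1, which encodes the scaffold also called AIMP3, at 128 and 129. By structural class, the 9 cytosolic class I enzymes had medians of 138 and 120 TPM and the 10 class II enzymes 200 and 169 TPM, with wide overlap of single genes. Eprs was left out of that split because it carries both classes.

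The mitochondrial enzymes below Lars2 covered a wide range. Threonine (Tars2) had 54.1 and 51.6 TPM, arginine (Rars2) 56.5 and 46.5, tyrosine (Yars2) 43.3 and 41.2 and isoleucine (Iars2) 30.2 and 30.6. Tars2 and Rars2 overlapped, and both lay above Yars2. Cars2 for cysteine stood at 27.4 and 24.4 TPM, Hars2 for histidine at 25.8 and 20.8, Vars2 for valine at 20.4 and 16.8, Sars2 for serine at 18.4 and 17.8 and Fars2 for phenylalanine at 17.7 and 17.1. At the lower end were Aars2 for alanine (12.3 and 11.7 TPM), Nars2 for asparagine (13.3 and 10.5), Ears2 for glutamate (8.21 and 8.56), Pars2 for proline (8.59 and 6.84), Wars2 for tryptophan (4.18 and 3.95) and Mars2 for methionine (2.72 and 2.74). Mars2 rested on 501 and 562 counts and Wars2 on 248 and 271, so their low TPM still rested on counts well above 0.

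Paired by amino acid, the cytosolic enzyme was the higher in both libraries in 16 of 17 pairs. Eprs was paired with Ears2 and with Pars2, and Fars2 with each chain of its cytosolic counterpart. By gene totals the widest gap was for methionine. Mars1 was 47.1 ± 4.85 times (SD, n = 2 libraries) as high as Mars2. The TPM of Mars2 depends on the length of its 1 deposited transcript, 11294 bases, of which 1758 are coding. Nars was 31.5 ± 1.49 times as high as Nars2, and Eprs 20.6 ± 2.64 times as high as Pars2. The narrowest gaps in this direction were 3.77 ± 0.174 for tyrosine and 3.82 ± 0.0227 for isoleucine. Over the pairs without leucine, the mitochondrial enzymes ran from 2.72 to 56.5 TPM in replicate 1 and the cytosolic ones from 66.3 to 404. Leucine was the exception, with Lars at 0.273 and 0.144 times the level of Lars2.

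**Figure D2:**
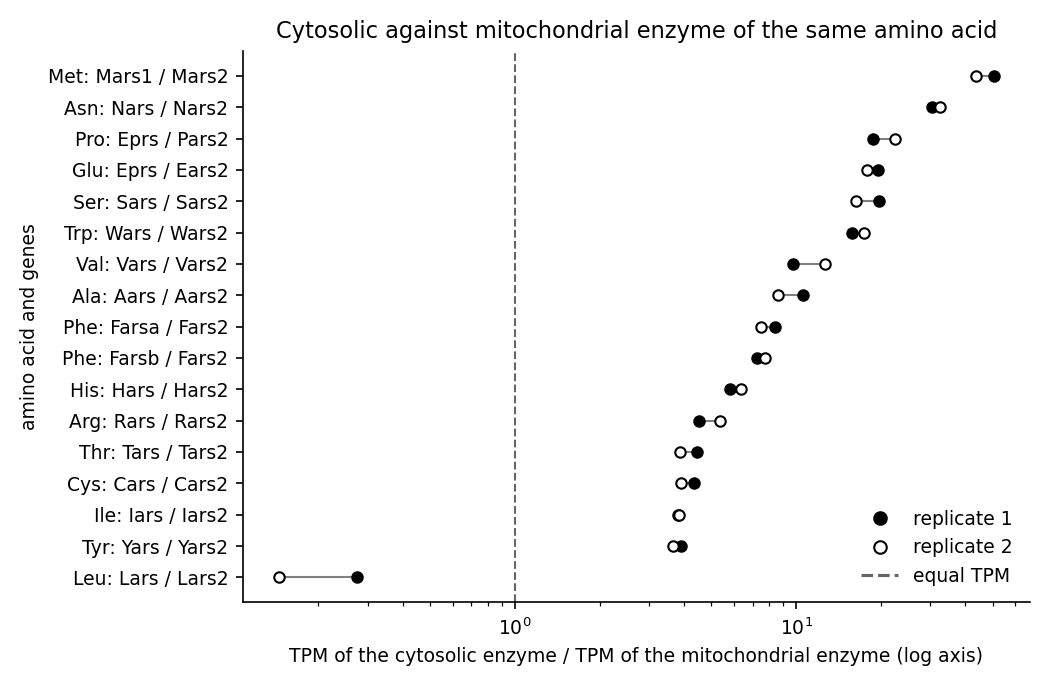
Ratio of the cytosolic to the mitochondrial TPM for each of 17 pairs of the same amino acid, on a log axis, with both replicates and a dashed line at equal levels. The leucine pair lies to the left of the line in both replicates and the other 16 pairs lie to the right, from 3.65 (tyrosine, replicate 2) to 50.6 (methionine, replicate 1).

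Lars2, mitochondrial leucyl-tRNA synthetase (chr9:123366927-123462666, plus strand, GRCm38), was the member with the highest mean level. It was at 314 TPM in replicate 1 and 543 TPM in replicate 2, a mean of 429 ± 162 (SD, n = 2), against 18.4 and 17.1 TPM for the median of the other 15 mitochondrial enzymes. Its level thus stood above theirs in both libraries, but its value differed more between the libraries than that of any other member. In replicate 1, Nars (404 TPM) and Sars (362 TPM) were above it. The deposited tables give Lars2 a single transcript. In GENCODE M21 it has 3894 bases, against 3881 in the deposited table, with the coding sequence before the stop codon at positions 200 to 2905 and a 3′ UTR of 986 bases. Of its runs of 41 bases, 14 also occurred in transcripts of other genes. Alignments of at least 41 bases and 90% identity to other transcripts lay in the 3′ UTR alone. They joined it to AA474408, an unclassified transcript, over 97 bases at 94.8% identity, and to the antisense RNA Gm15564 over 72 bases at 98.6%. AA474408 was at 5.52 and 11.8 TPM and Gm15564 at 50.1 and 42.8 TPM, so both sequence-sharing genes were far below Lars2 in each library. 2 non-coding entries looked up beside it, Gm42418 and Gm26917, were at 4358 and 7852 TPM and at 2416 and 3082 TPM. The mitochondrial ribosomal RNAs mt-Rnr1 and mt-Rnr2 were at 561 and 729 TPM and at 947 and 1342 TPM. All 4 were higher in replicate 2, as Lars2 and AA474408 were, whereas Gm15564 was lower. The 4 were chosen after values were seen, and their part in the level of Lars2 was not tested.

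Lysyl- and glycyl-tRNA synthetase each serve cytosol and mitochondria from a single gene. In Kars (GRCm38, minus strand) the forms differ in their first coding exon, and the deposited transcript table separates them. The short form has its start codon in exon 1 and 595 codons before the stop codon. The long form, on 2 deposited transcripts, starts in an additional exon and has 624 codons, and is known to carry the mitochondrial targeting sequence. The coding parts that differ are shown from the start codon (capitals) to the point where both forms continue with the same 1726 coding bases, the short form from chr8:112011210-112011268 and the long form from chr8:112008207-112008352.
Kars short form: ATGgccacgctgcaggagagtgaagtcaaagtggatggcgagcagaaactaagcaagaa
Kars long form: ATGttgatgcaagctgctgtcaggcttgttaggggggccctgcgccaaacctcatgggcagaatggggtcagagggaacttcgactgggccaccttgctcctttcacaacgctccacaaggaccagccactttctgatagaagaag
The long form made up 22.5% of the gene's TPM in replicate 1 and 17.1% in replicate 2, a mean of 19.8% ± 3.86 (SD, n = 2). This corresponded to 62.6 and 49.2 TPM, a mean of 55.9 ± 9.47. Set beside the 16 mitochondrial enzymes, the long form would have ranked 2nd in replicate 1 and 3rd in replicate 2, above both Tars2 and Rars2 in replicate 1 and between them in replicate 2. The short form, at 215 and 239 TPM, remained in the upper part of the cytosolic list. Gars has 1 deposited transcript, and its cytosolic and mitochondrial products could not be separated.

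Most members were made up mainly of transcripts that encode the whole enzyme. A transcript was counted as full-length when its coding sequence reached 90% of the gene's longest. For 10 members the tables hold a single transcript. Counting those, 17 members had more than 90% of their TPM on full-length transcripts in both libraries, and 31 of 36 had the same leading transcript in both. In 5 members, Hars2, Nars2, Qars, Vars and Wars2, the full-length share stayed under 50% in both libraries. For Wars2 the leading transcript was annotated for nonsense-mediated decay and had 72.0% and 63.9% of the gene's TPM, which left 1.07 and 1.43 TPM of full-length transcript. For Qars the full-length share was 29.2% and 25.6% over 18 deposited transcripts, and for Vars 30.3% and 29.2% over 13. Qars therefore had 53.4 and 46.6 TPM, and Vars 60.3 and 62.0 TPM, on full-length transcripts. Part of the rest was on short entries, such as Qars-216 (761 bases, 27.1 and 41.7 TPM) and Vars-207 (388 bases, 37.9 and 25.5 TPM). Lars has 1 deposited transcript and so counts as full-length throughout. Its 85.8 and 78.4 TPM therefore cannot be ranked against these values. Nars2 was led by a non-coding transcript in replicate 1 (54.9%) and by its full-length transcript in replicate 2 (32.0%).

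The other changes of leading transcript concerned Hars2, Iars, Qars and Tars2. In Iars the change was between 2 transcripts with the same coding length of 3786 bases, 1 leading with 52.6% in replicate 1 and the other with 84.6% in replicate 2. With full-length transcripts alone, the medians were 124 and 108 TPM for cytosolic and 12.6 and 12.2 TPM for mitochondrial enzymes. The cytosolic enzyme was still the higher in 16 of 17 pairs, but the order of the pairs by gap changed. Mars1 then had 75.5 and 73.7 TPM against 2.72 and 2.74 for Mars2. Nars had 404 and 343 TPM against 3.65 and 3.37 for Nars2, a wider gap than for methionine. Mars2 and Nars have 1 deposited transcript each, so these gaps depend on the annotation. Shares of transcripts with few distinguishing bases are estimates from 2 single-end libraries and were less precise than gene totals.

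**Figure D3:**
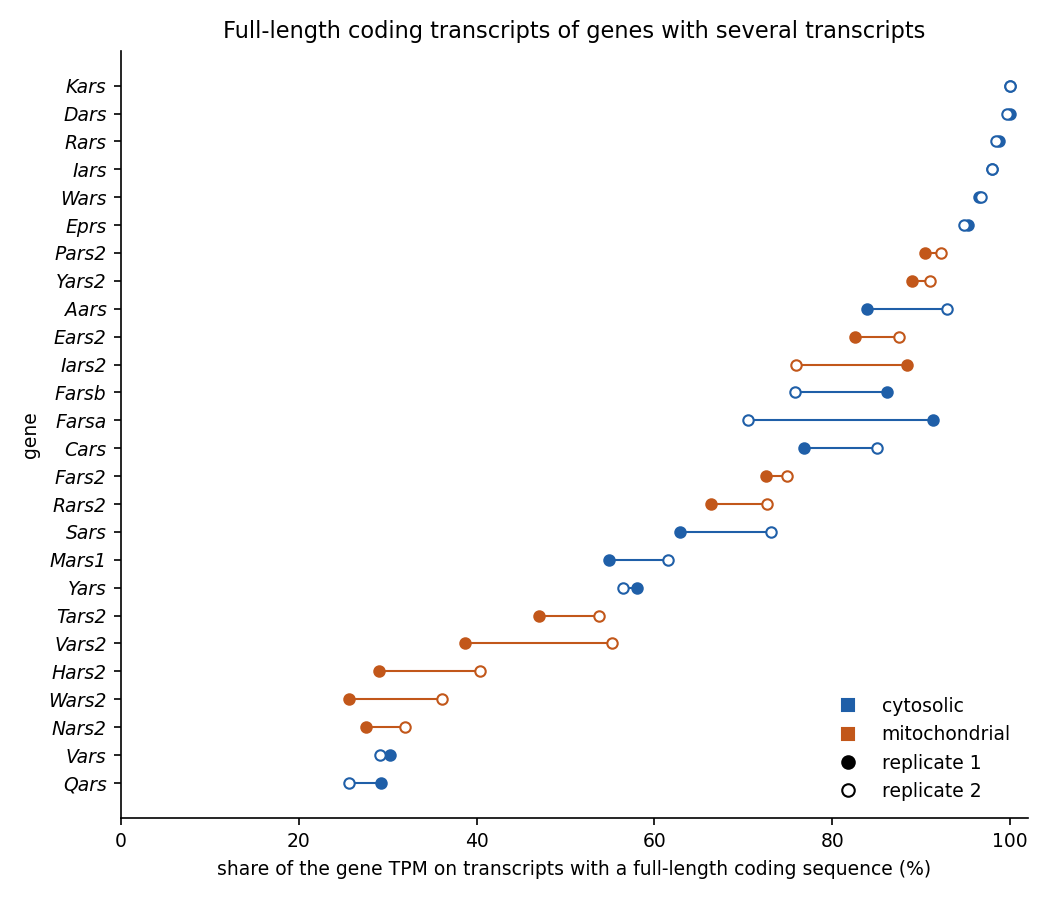
Share of each gene's TPM on transcripts with a full-length coding sequence, for the 26 members with several transcripts (percent, both replicates, cytosolic in blue and mitochondrial in orange). Kars, Dars and Rars lie above 98% and Qars, Vars, Nars2, Wars2 and Hars2 under 50% in both replicates.

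The level of a cytosolic enzyme was set beside the share of codons for its amino acid in nuclear transcripts, weighted by transcript TPM. Leucine had the largest share, 9.16% of codons, and its enzyme Lars the lowest level but 1. Asparagine had 3.61% and its enzyme Nars the highest level. Tryptophan was at the bottom of both, with 1.03% of codons and the lowest enzyme, Wars. Per percent of codons the enzymes therefore ranged from 8.97 TPM for leucine to 104 TPM for asparagine. Over the 20 amino acids Spearman's rho was 0.299 in replicate 1 and 0.335 in replicate 2. For the 16 mitochondrial enzymes and the codons of mitochondrially encoded transcripts, rho was 0.168 and 0.224, and without Lars2 it was -0.011 and 0.057. These are descriptions over amino acids that share both libraries, and Eprs enters for 2 amino acids.

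**Figure D4:**
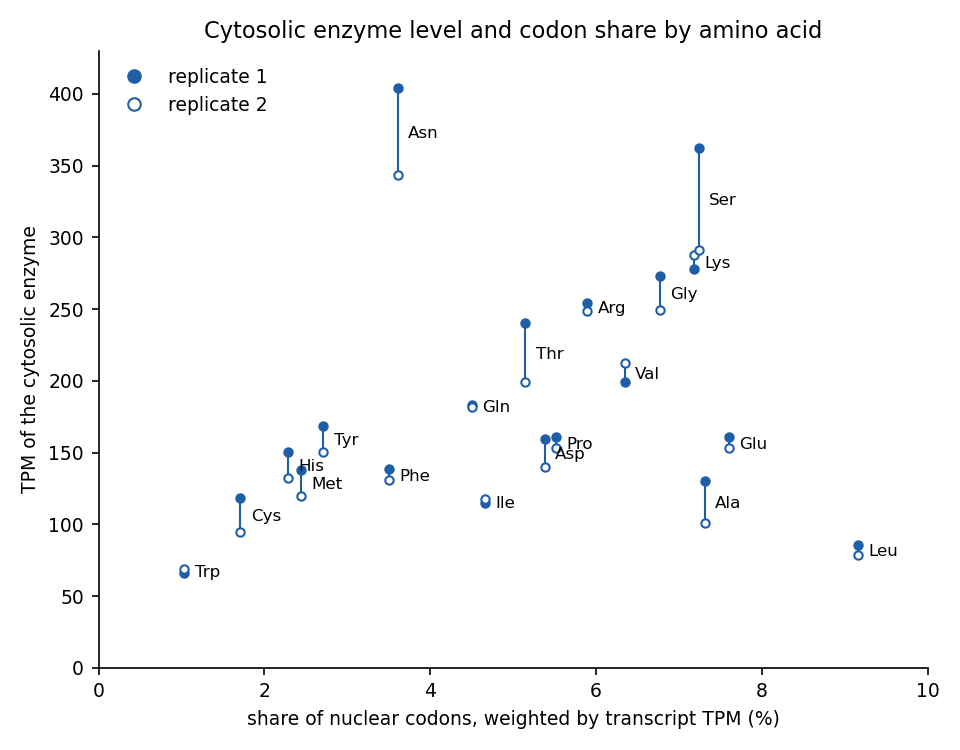
TPM of the cytosolic enzyme (vertical axis) against the percent of nuclear codons for its amino acid (horizontal axis), with filled circles for replicate 1 and open circles for replicate 2. Asparagine lies at 404 and 343 TPM with 3.61% of codons, and leucine at 85.8 and 78.4 TPM with 9.16%.

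Promoter windows of 250 bases before to 50 bases after the start site were found for 27 of the 36 genes in RefSeq sequence of GRCm38.p6, 13 cytosolic and 14 mitochondrial. They were searched on both strands for TGATGNAA, the composite element bound by ATF4 and C/EBP proteins. It occurred in 5 members (18.5%), Aars, Gars, Iars, Tars and Yars, all cytosolic, and in 4.51% of 27025 genes. Their windows are shown because amino acid shortage is known to act on synthetase genes through this element. Shown for each gene is a window of 30 bases on the strand of the gene, with the element in capitals, which reads TTNCATCA where it lies on the other strand.
Yars, chr4:129189895-129189924, plus strand: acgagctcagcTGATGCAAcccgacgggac
Gars, chr6:55037960-55037989, plus strand: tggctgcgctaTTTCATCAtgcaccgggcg
Aars, chr8:111033840-111033869, plus strand: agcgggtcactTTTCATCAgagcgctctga
Iars, chr13:49682126-49682155, plus strand: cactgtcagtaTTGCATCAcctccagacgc
Tars, chr15:11399655-11399684, minus strand: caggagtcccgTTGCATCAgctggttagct
Counted from the start site, the elements shown began at 9 in Aars, at 3 in Yars, at 7 in Iars, at -15 in Tars and at -30 in Gars. These 5 genes ranged from 115 (Iars) to 273 TPM (Gars) in replicate 1, and the other 8 cytosolic enzymes with a promoter window from 128 (Farsb) to 362 TPM (Sars). The E-box CACGTG was in 5 members (Aars, Ears2, Farsb, Iars, Tars; 18.5%) and in 8.09% of genes. The ETS motif CCGGAAG was in 9 (33.3%; 5 cytosolic, 4 mitochondrial) and in 9.93% of genes. The palindromic NRF1 consensus was in none of the 27 and in 1.07% of genes. A match is a description of the sequence, and binding was not measured.

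ATF4 and its partners belong to the amino acid response, in which the kinase GCN2 (Eif2ak4) senses uncharged tRNA. Of 14 genes of this response, 12 were detected in both libraries. Psat1, an enzyme of serine synthesis, stood at 305 and 311 TPM, Atf4 at 249 and 262 and Eif2s1, the eIF2α subunit that GCN2 phosphorylates, at 104 and 108. The sensor side was lower, with Eif2ak4 at 15.2 and 16.4 TPM and its activator Gcn1l1 at 46.0 and 51.9. The remaining detected genes lay between 16.5 and 29.5 TPM: Ddit3 (21.1 and 16.5), Atf3 (22.3 and 18.6), Trib3 (18.3 and 18.5), Chac1 (25.8 and 24.6), Sesn2 (24.4 and 29.5), Ddit4 (29.0 and 28.0) and Ppp1r15a (24.8 and 27.8). Asparagine synthetase (Asns), a usual ATF4 target, had 1 and 2 counts (0.03 and 0.06 TPM), while Nars, which loads asparagine on its tRNA, was the highest cytosolic member. Cebpb was likewise near 0, at 0.05 and 0.18 TPM.

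Genes that work next to the synthetases were present as well. The 7 synthetase-like and editing genes were all detected, with medians of 37.8 and 31.6 TPM, led by Lrrc47 (76.0 and 72.1) and Aarsd1 (77.2 and 62.2), an alanyl-tRNA editing protein. They include Dtd1, which removes D-amino acids from tRNA, at 37.8 and 31.6 TPM. Mitochondria make glutaminyl-tRNA indirectly, by amidation of glutamyl-tRNA. The 5 genes of that step, of formylation and of the removal of the formyl group (Pdf) had medians of 23.8 and 25.0 TPM. Qrsl1 was at 33.6 and 33.4, Pdf at 28.6 and 28.8, Gatc at 20.95 and 25.04 and Gatb at 23.8 and 19.9. The 10 mitochondrial translation factors had medians of 29.1 and 22.3 TPM, near those of the mitochondrial synthetases, led by Tufm (124 and 128), Gfm1 (70.4 and 71.8), Tsfm (41.1 and 39.0) and Mtif2 (36.8 and 31.0). The 9 cytosolic elongation and termination factors had medians of 1383 and 1156 TPM, far above the cytosolic synthetases, with Eef1a1, which carries the charged tRNA to the ribosome, at 9347 and 9121. All 6 genes of selenocysteine charging were detected, led by Sephs2 (125 and 106 TPM).

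The 2 libraries were then compared gene by gene. The test, exact binomial and two-sided, measures counting error alone and compares libraries, not conditions. Replicate 2 is set over replicate 1 throughout, as a ratio of counts scaled by library size, which unlike TPM takes no account of transcript length. Of the 36 members 18 passed at an adjusted p of 0.05, 4 higher and 14 lower in replicate 2. The test called 30.6% of the 15340 genes tested, 14.6% higher and 15.9% lower. Members are more deeply counted than most genes, with a median of 4235 counts against 394. Where the mean was 1000 counts or more, 54.5% of genes were called (28.0% higher, 26.4% lower), and 17 of the 25 members in that range were (4 higher, 13 lower).

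Lars2, with 19757 and 38019 counts, was higher in replicate 2 by 0.81 ± 0.013 on the log2 scale (counting SE). The other 3 higher genes, Kars, Vars and Iars, moved by 0.06, 0.06 and 0.05. Of the 14 lower genes, 13 were cytosolic: Tars (-0.25), Nars (-0.22), Aars (-0.21), Farsa (-0.20), Yars (-0.18), Dars (-0.18), Cars (-0.17), Hars (-0.17), Sars (-0.16), Lars (-0.11), Gars (-0.11), Qars (-0.08) and Eprs (-0.04). The mitochondrial gene among them was Hars2 (-0.21), and 14 of 16 mitochondrial enzymes did not pass. The median log2 ratio was -0.11 over cytosolic and -0.03 over mitochondrial members, and 0.0016 over all genes tested. Genes averaging 100 counts or more had a median absolute log2 ratio of 0.12.

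With edgeR's negative binomial exact test, which takes the spread between the libraries (a coefficient of variation of 19.8%) as the error, none of the 36 members passed. In the same exact test 1 member had an unadjusted p under 0.05, Lars2, with p = 0.0485 and an adjusted p of 0.875. That exact test called 2.54% of all genes tested and 0.607% of those averaging 1000 counts or more. By that test no member differed between the libraries beyond their general spread after adjustment. Since this spread was estimated from the same 2 libraries, a member that did not pass is not shown to have equal levels in both.

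**Figure D5:**
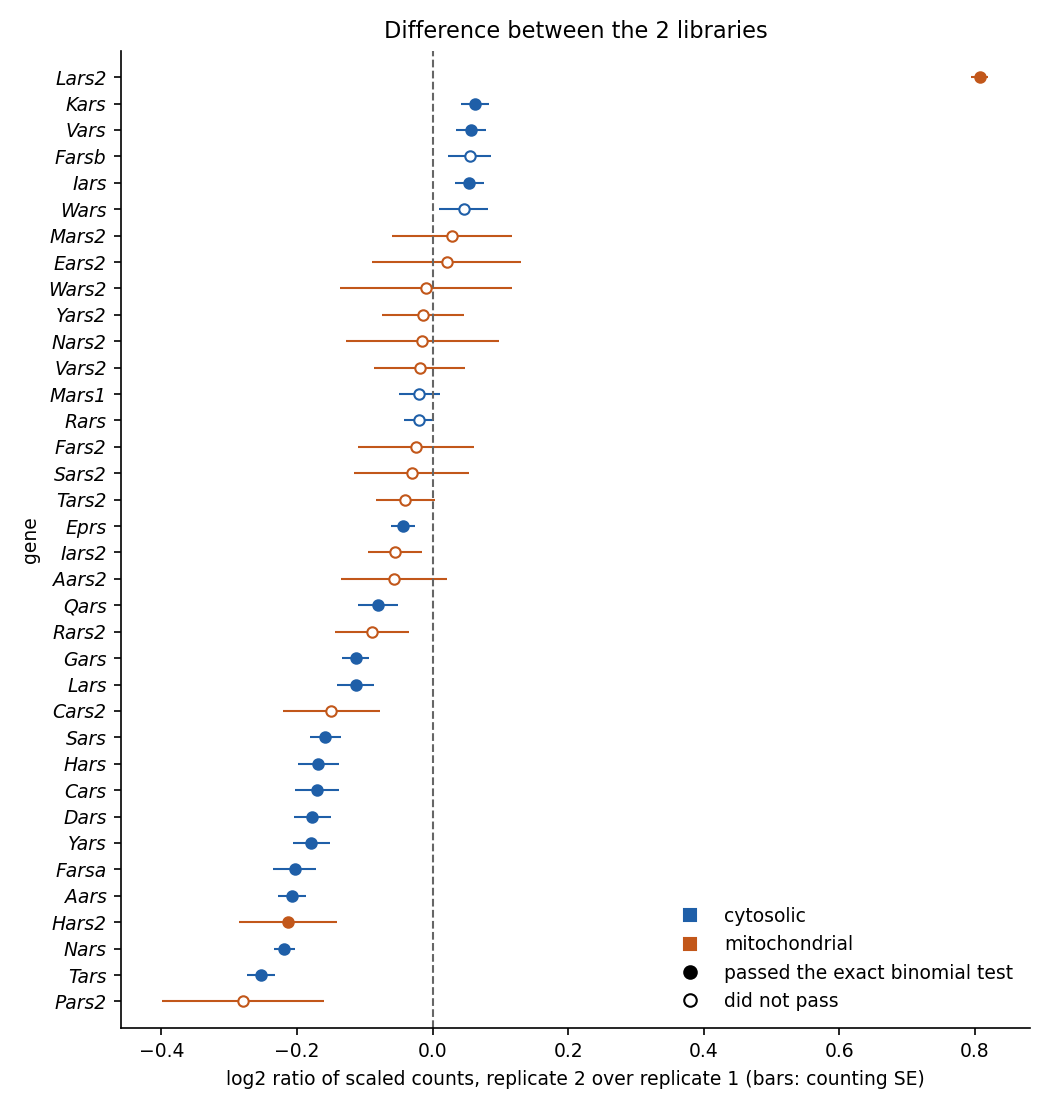
Log2 ratio of scaled counts, replicate 2 over replicate 1, for each member, with bars for the counting SE and filled circles for genes that passed the exact binomial test. Lars2 lies at 0.81 and the other 35 members between -0.28 (Pars2, which did not pass) and 0.06.

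Among the annotated transcripts, the quantifier assigned reads to the members with little uncertainty. The posterior SD of the count, the quantifier's own measure of uncertain assignment, was at most 0.363% of the count in any member and library. It does not show whether reads came from a source outside the annotation. Fewer than 90% of their 41-base runs were free of matches to other genes in Iars2 (77.0%), Cars2 (81.3%), Aars (86.0%) and Iars (89.8%). Iars2 overlaps exons of Rab3gap2 on the other strand over 24.2% of its exon bases together with a smaller neighbour, and Cars2 those of Naxd over 22.2%. Aars shares its strand with Exosc6 where the 2 overlap, and the copy of Iars is the pseudogene Gm4849. Among the pairs of same amino acid, Hars and Hars2 alone shared such runs, 155 of them, where the 2 genes overlap head to head over 195 exon bases on opposite strands. The sources used here do not say whether strand was used in counting, so reads in those opposite-strand overlaps cannot be told apart by strand.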

How the data were processed

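Both libraries are polyadenylated RNA from the same line. The authors deposited, per library, gene and transcript tables with expected counts, posterior mean counts with their SD, TPM, FPKM, and the percent of each gene's level on each transcript, per the file headers. Per the deposited notes, the reads were placed on mm10 with GENCODE M4. Aligner and quantifier: not given in the sources used here. Both TPM and FPKM are the authors', per the file headers, and were used as deposited; the TPM limits of the authors' credibility intervals were not used.

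Genes were matched to GENCODE M21 on the same assembly (42462 of 43346 entries; Mars1 through its older symbol). Entries without a gene name (0.0426% and 0.0539% of counts) were left out. Expected counts were rounded to whole numbers, genes with at least 10 counts over both libraries were kept, library sizes were scaled by TMM (edgeR 4.0.16, R 4.3.3), and each gene's 2 counts were compared by a two-sided exact binomial test (SciPy 1.17.1) with Benjamini-Hochberg adjustment over all 15340 genes at 0.05. The log2 ratio used a pseudocount of 0.5. The script was tested on simulated data. A quasi-likelihood fit needs a second group. edgeR's negative binomial exact test, DESeq2 1.42.0 size factors, library totals, posterior mean counts and no filter were alternatives. Intervals and SE cover counting error only. Sequence matches came from BLAST 2.17.0 and exact runs of 41 bases, the read span implied by the deposited effective lengths.

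All 36 members are named. Of the related lists, the 4 highest genes and those not detected are named, and all scaffold and amino acid response genes. Members and lists were chosen with earlier results of these data known. The genes set beside Lars2 and those overlapping or matching a member were chosen after values were seen. A few of these genes and 1 of 2 element matches in Aars are not reported here. A planned comparison of protein sequences was not made.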

Additional observations from a re-analysis of the deposited data

How the results depend on the processing

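No paired analysis was possible because the labels give replicate numbers within a single group. With 2 libraries, SDs are rough and levels carry no test, and low counts limit the smallest mitochondrial enzymes. All 36 members stayed detected at 0.5 TPM, at 1 FPKM, with posterior mean TPM and in each library alone. At 5 TPM, 14 of the 16 mitochondrial members were, without Mars2 and Wars2. The leading transcript was the same in both libraries in 32 members by posterior mean TPM.

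The cytosolic median of 153 TPM and the mitochondrial median of 18.4 TPM fell to 116 and 12.4 with full-length transcripts alone, an alternative chosen after seeing the data. The ratio of medians of 8.28 became 7.53 with posterior mean TPM, 7.90 without Gars and Kars, 8.59 without Lars2 and 9.34 with full-length transcripts. The cytosolic enzyme was the higher in 16 of 17 pairs under each alternative run. Of the 4 members higher and 14 lower in replicate 2, the negative binomial exact test kept 0 and 0. With library totals 1 was higher, Lars2, because Kars, Vars and Iars no longer passed. Iars was also lost with DESeq2 size factors and without the filter, and Eprs without the filter and with posterior mean counts. Pars2 passed as lower with library totals. No member that passed changed direction; Ears2, which did not pass, went from 0.02 to -0.0034 with library totals. At 0.5 TPM 1 T cell and 2 myeloid markers were detected, and at 5 TPM 0 myeloid markers.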
